A study of Mus musculus with 8 samples.

Results

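Tnmd, Ppp1r1c, Spink2, Emp1, Hpse, Crisp1 and Lce1g are 7 protein-coding genes whose transcripts were more than 10-fold lower in H2BE knockout neurons than in wild-type neurons. They were picked by name from a table of 26229 genes, for a fall of more than 10-fold at a mean normalized count above 50. That choice used the fold change and the count themselves, so both are given here as a description and without a test of their own. The RNA came from primary cortical neurons taken from mouse embryos at E16.5 and cultured for 12 days. Both genotypes had 4 biological replicates: WT, and H2BE-KO/mCherry-KI, in which a red fluorescent protein cassette was knocked in. H2BE is a variant of the core histone H2B, made from the gene H2bc21. The labels do not name the strain, the cells in which mCherry is driven or the part of the gene that was replaced.

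The 7 genes are known from different tissues and do different work. Tnmd encodes tenomodulin, a membrane glycoprotein of tendon and ligament cells with a BRICHOS domain. Hpse encodes heparanase, the enzyme that cuts heparan sulfate chains of the cell surface and the matrix. Emp1 encodes epithelial membrane protein 1, a small membrane protein of the PMP22 family that spans the membrane several times. Ppp1r1c encodes an inhibitor of protein phosphatase 1 and is related to Ppp1r1b, the gene of the striatal signalling protein DARPP-32. Spink2 encodes a Kazal-type inhibitor of serine proteases that is best known from the acrosome of sperm. Crisp1 encodes a cysteine-rich secretory protein that the epididymis adds to the sperm surface. Lce1g encodes a late cornified envelope protein, a structural protein of the outermost epidermis. None of the 7 is a textbook marker of cortical neurons.

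Sequence upstream of the start sites is shown because the genes were chosen on expression alone, and this is what they do or do not share beyond it. All 7 genes had at least 1 promoter in the RefSeq table for GRCm38.p6, and the table held 10 promoters for them, each 300 bases long. Each covers 250 bases before and 50 after an annotated start. Below are the last 150 bases before the start for the 2 members with a motif match (Emp1, first promoter, and Crisp1) and the members with the most and the fewest CpG dinucleotides (Hpse and Lce1g), 5′ to 3′ along the gene. Capitals mark a match to TGANTCA, the letters of an AP-1 site, or to TATAAA, the letters of a TATA box.
Emp1, chr6:135362781-135362930, plus strand: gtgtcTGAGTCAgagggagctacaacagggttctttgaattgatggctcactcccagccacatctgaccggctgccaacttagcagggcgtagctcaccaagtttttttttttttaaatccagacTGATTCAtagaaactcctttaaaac
Crisp1, chr17:40319208-40319357, minus strand: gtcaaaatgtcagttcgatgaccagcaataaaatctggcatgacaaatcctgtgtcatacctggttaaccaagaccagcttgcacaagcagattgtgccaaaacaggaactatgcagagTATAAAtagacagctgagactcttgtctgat
Hpse, chr5:100719717-100719866, minus strand: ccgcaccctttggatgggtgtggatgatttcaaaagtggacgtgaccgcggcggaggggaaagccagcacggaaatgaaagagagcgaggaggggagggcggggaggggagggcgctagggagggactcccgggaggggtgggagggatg
Lce1g, chr3:92752339-92752488, minus strand: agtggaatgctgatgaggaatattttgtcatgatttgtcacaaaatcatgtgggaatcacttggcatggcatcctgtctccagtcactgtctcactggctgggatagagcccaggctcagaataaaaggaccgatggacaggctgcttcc

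The promoters had no searched motif in common. Besides TATAAA and TGANTCA, the letters of a cyclic AMP response element, TGACGTCA, were searched, each on both strands over the whole 300 bases. Emp1 held TGANTCA at 2 places, beginning 145 and 25 bases before the start, and no other member held it. The motif reads the same on both strands apart from its middle base, so each place was counted once. Of all 32851 promoters of this length, 7.81% held it. Crisp1 held TATAAA, beginning 31 bases before its start, where 13.6% of all promoters held that motif somewhere. TGACGTCA was in none of the members' promoters and in 1.79% of all promoters. The number of CpG dinucleotides ran from 1 in Lce1g and 2 in Crisp1 to 19 in Hpse, against a median of 7 and quartiles of 3 and 20 over all promoters. Tnmd and Ppp1r1c had 4 each, Emp1 had 5 and 3 in its 2 promoters, and Spink2 had 9, 13 and 14 in its 3 overlapping promoters. A match of letters is a description and shows no binding.

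All values below come from the authors' deposited table or were computed from it. The table's header gives no direction. The authors' deposited table lists the targeted gene H2bc21 at a positive log2 fold change of 3.45, with a standard error (SE) of 0.19 and an adjusted p of 4.49e-68. Since this gene should be lower in the knockout, a positive entry was taken to mean more RNA in wild type. The sign of every deposited log2 value was therefore turned, and all log2 values from here on are printed with the turned sign, knockout over wild type, also where the deposited table is named as their source. Every "higher" and "lower" would swap if that reading were wrong. For H2bc21 the turned value is -3.45, which corresponds to genotype means of 2033 and 186 normalized counts. The table has no values per library, so the 4 single values of each genotype were not analysed here and whether they overlap is unknown. In their place the mean of each genotype was computed from the mean normalized count over all 8 libraries and the fold change. Its SE comes from the SE of the fold change and takes the relative spread between replicates to be alike in both genotypes. The depth of single libraries is unknown.

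Of the 12561 rows with a mean count above 50, 18 or 0.143% were more than 10-fold lower, and the 7 genes are among these 18. The authors' deposited table gave all 7 an adjusted p under 0.05, where 10.9% of 18085 tested genes were lower at that threshold. Since the genes were chosen for this fall, nothing is read from that count. Their falls ran from 11.01-fold to 25.5-fold with a median of 15.0-fold. The bound of the 95% interval nearest to no change lay past a 4-fold fall for 5 of the 7, past a 2-fold fall for all 7, and past the 10-fold limit for none. With the Wald statistic read against a t distribution with 6 degrees of freedom, none of the 7 passed an adjusted p of 0.05, although all 7 had an unadjusted p below it. Against a normal null scaled to the spread of all Wald statistics none passed either, and 5 had an unadjusted p below it.

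**Figure D1:**
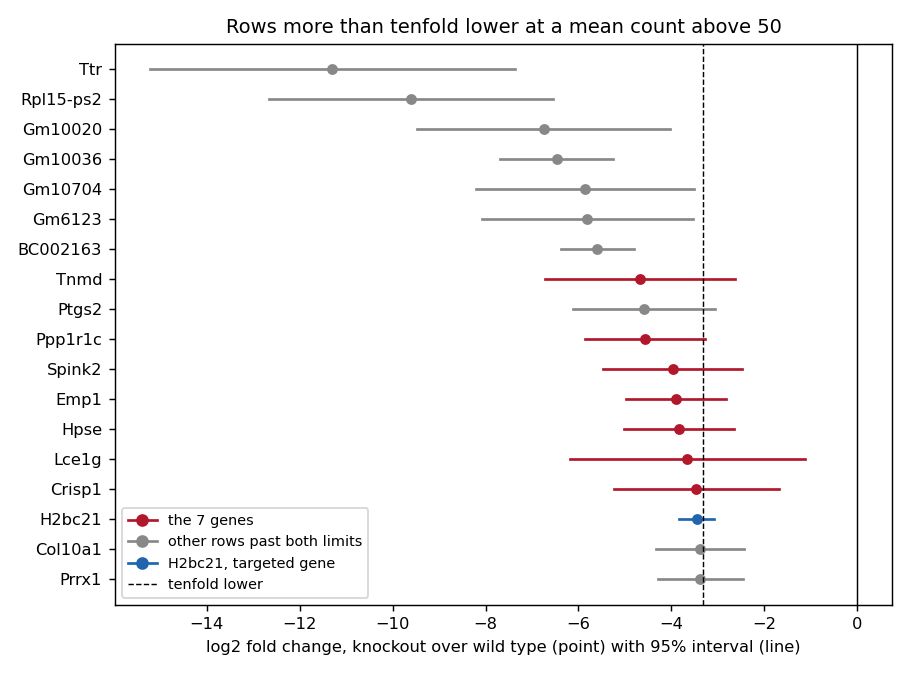
Log2 fold change of knockout over wild type (point) with its 95% interval (line) for the 18 rows more than 10-fold lower at a mean normalized count above 50. The 7 genes (red) lie between -4.67 and -3.46, and all of their intervals reach beyond the 10-fold limit towards 0, with that of Lce1g the widest of the 7.

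Of the 3 members that act at the cell surface or on the matrix, Tnmd had the largest fall. Its genotype means were 128 ± 62.2 normalized counts in wild type and 5.02 ± 2.68 in the knockout (SE, n = 4 each). With the sign turned, its log2 value from the authors' deposited table was -4.67 (SE 1.04, adjusted p = 0.000135). That is 25.5-fold lower with a 95% interval from 6.21-fold to 105-fold, and the knockout kept 3.92% of the wild-type level. Tnmd (ENSMUSG00000031250) lies on the plus strand of chromosome X, chrX:133850980-133865577 in GRCm38, with 7 exons.

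Hpse, the heparan sulfate cutting enzyme, had genotype means of 186 ± 51.9 in wild type and 13.02 ± 4.02 in the knockout (SE, n = 4 each). Its turned log2 value from the authors' deposited table, -3.84 (SE 0.60, adjusted p = 1.6e-08), is a fall of 14.3-fold with an interval from 6.33-fold to 32.3-fold. The gene (ENSMUSG00000035273) lies at chr5:100679484-100719716 on the minus strand. Emp1 had 348 ± 90.2 in wild type and 23.2 ± 6.45 in the knockout. For Emp1 the turned log2 value from the authors' deposited table was -3.91 (SE 0.55, adjusted p = 2.22e-10), with the smallest SE of the 7, and a fall of 15.0-fold with an interval from 7.12-fold to 31.6-fold. Emp1 (ENSMUSG00000030208) lies at chr6:135362545-135383173 on the plus strand, and 6 transcripts are annotated.

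Ppp1r1c, the phosphatase inhibitor and the one member with a signalling role inside the cell, was the most abundant by count. Its genotype means were 930 ± 296 and 39.2 ± 12.9 normalized counts (SE, n = 4 each). Its turned log2 value from the authors' deposited table was -4.57 (SE 0.66, adjusted p = 7e-10). This is 23.7-fold lower, with an interval from 9.69-fold to 58.1-fold whose near bound comes closest to the 10-fold limit. Ppp1r1c (ENSMUSG00000034683) lies at chr2:79707780-79818496 on the plus strand, with 5 annotated transcripts.

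Spink2 and Crisp1 are the members known from the male reproductive tract. Spink2, the acrosomal protease inhibitor, had 101 ± 35.0 normalized counts in wild type and 6.43 ± 2.55 in the knockout (SE, n = 4 each). From the authors' deposited table its turned log2 value was -3.97 (SE 0.76, adjusted p = 5.99e-06), or 15.7-fold lower with an interval from 5.60-fold to 44.1-fold. Its mean count of 53.7 was the nearest to the limit of 50. Crisp1, the epididymal sperm-coating protein, had 293 ± 128 in wild type and 26.6 ± 11.9 in the knockout. Its turned log2 value from the authors' deposited table, -3.46 (SE 0.90, adjusted p = 0.00148), is the smallest of the 7, 11.01-fold with an interval from 3.23-fold to 37.5-fold. Spink2 (ENSMUSG00000053030) lies at chr5:77205107-77211471 and Crisp1 (ENSMUSG00000025431) at chr17:40293758-40319207, both on the minus strand.

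Lce1g, the cornified envelope gene, was the least certain. Its genotype means were 225 ± 141 and 17.8 ± 11.4 normalized counts (SE, n = 4 each). From the authors' deposited table the turned log2 value was -3.66 (SE 1.29, adjusted p = 0.0257), and the 12.6-fold fall had an interval from 2.19-fold to 73.0-fold. At an adjusted p threshold of 0.01 Lce1g was the one member that no longer passed. Lce1g (ENSMUSG00000027919) lies at chr3:92750148-92752338 on the minus strand, 3.47 Mb from the targeted gene H2bc21 on the same chromosome. The 7 genes lie on 6 chromosomes, and the pair that shares chromosome 5, Spink2 and Hpse, is 23.5 Mb apart.

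**Figure D2:**
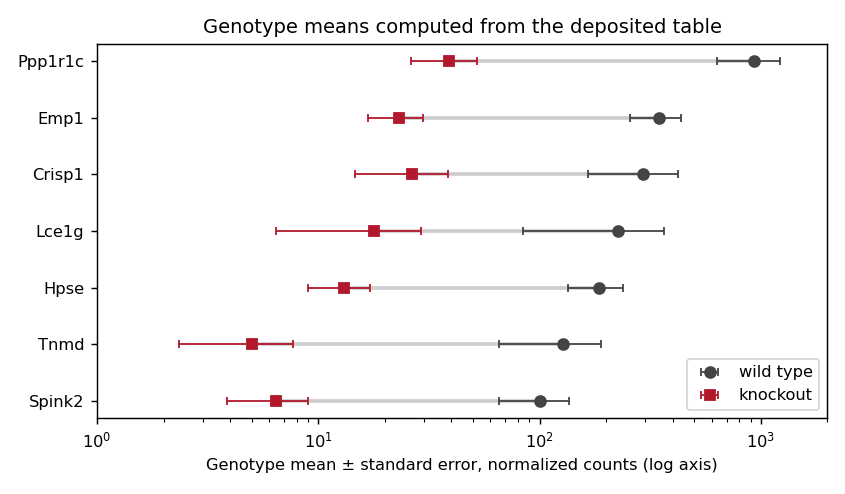
Genotype means in normalized counts (log axis) for the 7 genes, wild type as circles and knockout as squares, with bars of 1 standard error computed from the deposited standard errors (n = 4 per genotype). Wild-type means run from 101 for Spink2 to 930 for Ppp1r1c, and knockout means from 5.02 for Tnmd to 39.2 for Ppp1r1c.

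Levels can be compared between genes only per length, so genotype means were divided by the length of all annotated exons. Per kb of exon, the wild-type level was highest for Lce1g at 243 normalized counts per kb and Crisp1 at 207. Ppp1r1c followed at 160, Spink2 at 128, Tnmd at 94.6, Emp1 at 58.6 and Hpse at 53.0. Per kb, all 7 therefore sat in the middle of the tested genes in wild type, between the 41.0th and the 64.8th percentile. In the knockout, levels per kb lay between 3.70 for Hpse and 19.3 for Lce1g, between the 12.3rd and the 30.5th percentile. The places of Ppp1r1c and Emp1 in the wild-type order depend on the length used, since with the longest transcript Ppp1r1c was at 268 per kb and Emp1 at 119. The SEs of neighbours in this order are large against the gaps between them, and no order was tested.

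The spread between replicates that the deposited SEs imply was wide for all 7 genes. It is a value of the fit and was not observed in single libraries. The SE of a fold change carries a dispersion, the squared coefficient of variation between replicates beyond counting error. It was solved from the deposited SE and the genotype means. For Emp1 the dispersion was 0.266, for Hpse 0.305, for Ppp1r1c 0.405, for Spink2 0.472, for Crisp1 0.763, for Tnmd 0.935 and for Lce1g 1.57. In coefficients of variation this runs from 51.6% for Emp1 to 125% for Lce1g. The median of 3835 tested genes with mean counts from 50 to 500 was 0.0570, or 23.9%, and their 95th percentile was 0.240. All 7 members lay above that percentile, and Crisp1, Tnmd and Lce1g also above the 99th, at 0.506. A selection for large fold changes can also favour genes of large spread, so this is a description of the 7. Which libraries carry the spread cannot be read from the table.

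**Figure D3:**
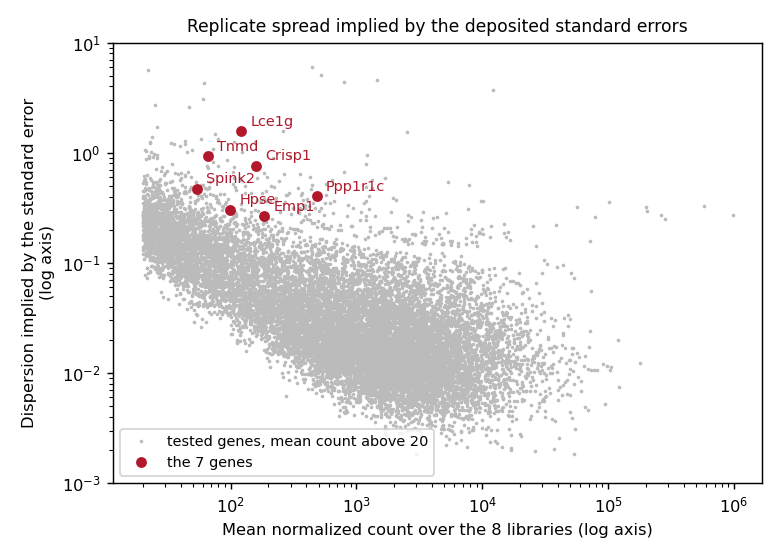
Dispersion implied by the deposited standard error against the mean normalized count, both on log axes. Grey marks tested genes with a mean count above 20 and a positive dispersion, and red the 7 genes. The 7 genes lie at the upper edge of the genes of like count, from 0.266 for Emp1 to 1.57 for Lce1g.

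Most of the 7 transcripts have sequence of their own, so reads can be assigned to them. Of all runs of 50 bases in the annotated transcripts, none of those of Tnmd, Hpse, Ppp1r1c and Spink2 occurred in a transcript of another gene on either strand. For Emp1 the shared part was 0.118% and for Crisp1 it was 2.41%, all of it with Crisp3. Lce1g shared 17.8% of its runs of 50 bases with 12 other genes, mostly of its own family, and 1.69% of its runs of 100 bases. Its count is therefore the least certain to be its own. By contrast 6 of the other 11 rows past the same limits are annotated as processed pseudogenes, and these shared from 43.4% (Gm6123) to 91.1% (Gm10020) of their runs of 50 bases with other genes. Read length and how reads that map to several places were treated are not stated in the labels.

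The remaining 5 rows past both limits were H2bc21 itself, Ptgs2, Col10a1, Prrx1 and Ttr. They are like the 7 only in having passed the same limits, and the mean counts of Ttr (1089) and H2bc21 (1109) were above those of all 7. Ptgs2, the cyclooxygenase-2 gene, had a turned log2 value of -4.59 (SE 0.78) from the authors' deposited table, between Tnmd and Ppp1r1c. Just inside the 10-fold limit were Prrx1, a homeobox gene of mesenchyme, at -3.37 (SE 0.47) and Col10a1, the collagen X gene of hypertrophic cartilage, at -3.38 (SE 0.49), then H2bc21. Just outside were Acan, the aggrecan gene, at -3.30 (SE 0.73), Nrap at -3.27 (SE 0.85) and Ifi209 at -3.23 (SE 1.28), turned values from the authors' deposited table. Crisp1, at -3.46, is the member nearest to the limit. Ttr, the gene of transthyretin, which the choroid plexus makes in quantity, had a turned log2 value of -11.30 (SE 2.00) from the authors' deposited table, which gives it neither a p nor an adjusted p. Which libraries carry its counts cannot be read from the table, and its fall is given without a test.

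Some relatives of Ppp1r1c, Tnmd, Spink2, Emp1 and Crisp1 passed the threshold, in either direction. For these 5 members a list of the gene family was drawn up, with 56 relatives, of which 33 were tested. At an adjusted p under 0.05 in the authors' deposited table, 6 relatives (18.2%) were lower and 4 (12.1%) higher, against 10.9% lower and 11% higher of all tested genes. The lists were not tested as sets.

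Among relatives of Ppp1r1c, the catalytic subunits and inhibitors of protein phosphatase 1, 1 rose, 2 fell and 9 of the 12 tested missed the threshold. The list's median was 0.02 on the log2 scale, beside -0.02 over all tested genes. The authors' deposited table put its nearest namesakes at 1.38 (SE 0.47, adjusted p = 0.0202) for Ppp1r1b, the DARPP-32 gene, which rose, and at -0.33 (SE 0.20, adjusted p = 0.251) for Ppp1r1a. Ppp1r2 fell to -0.49 (SE 0.16) and the catalytic subunit gene Ppp1cc to -0.28 (SE 0.09) in the authors' deposited table. Of the PMP22 family, 1 of 6 tested fell and 1 rose, with a median of -0.04. In the authors' deposited table Emp2, the closest namesake of Emp1, rose to 1.56 (SE 0.42, adjusted p = 0.00205), opposite to Emp1, and Cldnd1 fell to -0.54 (SE 0.17). Emp3 was at -0.51 (SE 0.56, adjusted p = 0.574) there.

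The BRICHOS genes related to Tnmd gave 1 fall among 4 tested, with a median of -0.19. It was Itm2c at -0.49 (SE 0.13, adjusted p = 0.00148) in the authors' deposited table. Cnmd, the chondromodulin gene and closest relative of Tnmd, was barely detected at a mean count of 3.35. None of the 4 tested Spink genes passed the threshold. The most abundant, Spink10, was at 0.22 (SE 0.23, adjusted p = 0.563) in the authors' deposited table at a mean count of 161.

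Of the CAP superfamily, to which Crisp1 belongs, 2 of 7 tested rose and 2 fell, with a median of 0.99. Crispld2 rose to 2.43 (SE 0.45) and Glipr2 to 1.47 (SE 0.25), while Pi15 fell to -2.47 (SE 0.63) and Glipr1 to -4.30 (SE 1.27, mean count 6.64), per the authors' deposited table. Crisp3 and Crisp4 had mean counts of 0.332 and 0.759 and were not tested, and no other Crisp gene of the list had a row.

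The family of Lce1g was barely detected. Of the 20 other Lce genes listed, 5 had a row and 1 was tested, and the highest mean count among them was 5.23, for Lce1i. That gene is the nearest tested neighbour of Lce1g on its right, 24.9 kb away, and was at -0.46 (SE 1.34, adjusted p = 0.85) in the authors' deposited table. Lce1f, at a mean count of 2.67, was not tested and had a log2 value of -4.09 (SE 1.97) in the authors' deposited table. Over the whole epidermal differentiation complex, the chromosome 3 cluster of barrier genes, 2 of 10 tested fell and none rose, against 10.9% lower and 11% higher of all tested genes, and the median was 0.08. They were Crct1 at -7.10 (SE 1.65, adjusted p = 0.00027, mean count 15.1) and Tchh, the trichohyalin gene, at -0.996 (SE 0.35, adjusted p = 0.0236) in the authors' deposited table.

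Genes of the pathway of Hpse were called in both directions. Of 48 tested genes that make, modify, carry or degrade heparan sulfate, 8 rose and 9 fell, and the other 31 missed the threshold, where 11% of all tested genes rose and 10.9% fell. Their median on the log2 scale was -0.05. Among genes that build and sulfate the chains, Hs3st4 rose to 2.32 (SE 0.31), Ndst4 to 1.83 (SE 0.49) and Hs3st2 to 1.42 (SE 0.29) in the authors' deposited table. In the same group Xylt2, which starts the chains, fell to -1.37 (SE 0.22) and Hs3st1 to -1.14 (SE 0.28) in the authors' deposited table. Of the proteins that carry the chains, Sdc3 rose to 0.74 (SE 0.12) there, and Gpc2, Sdc1 and Agrn also rose. Gpc3 was the only carrier that fell, to -1.28 (SE 0.26). Of the genes of lysosomal enzymes that finish the breakdown after Hpse, Gusb fell to -0.78 (SE 0.22) and Naglu to -0.58 (SE 0.17) in the authors' deposited table. Ids, Idua, Sgsh, Hgsnat and Arsk missed the threshold. Ctsl, the protease that activates heparanase, fell to -0.75 (SE 0.14) by the authors' deposited table. Hpse2, the relative of Hpse without its activity, had a mean count of 2.90 and was not tested.

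**Figure D4:**
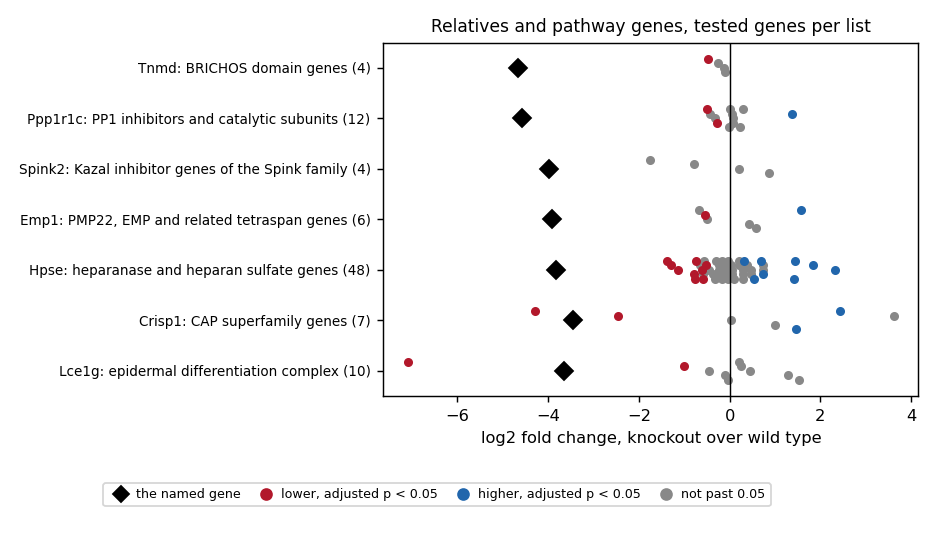
Log2 fold change of knockout over wild type for the tested genes of 7 lists, 1 row per list with the number tested in brackets, coloured by the deposited adjusted p. Black diamonds mark the 7 genes, and Crct1 at -7.10 and Glipr1 at -4.30 are called genes that lie further down than the diamond of their row.

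Marker genes of the tissues that the 7 genes are known from were called in both directions. At an adjusted p under 0.05, 10.9% of all tested genes were lower and 11% higher. Tendon and ligament markers had a median of 0.26, and of the 18 tested 2 rose (Fbln1 and Dcn) and 1 fell (Bgn). The tendon transcription factor gene Scx had a mean count of 5.68 and was at 0.49 (SE 0.81), and Mkx was at 0.23 (SE 0.22) in the authors' deposited table, with Bgn at -1.75 (SE 0.47). Among 15 tested keratinocyte markers no gene fell. The one that rose was Dsc3, a desmosomal cadherin gene, at 3.18 (SE 0.90) in the authors' deposited table, and the median was 0.27. Of 29 sperm and epididymis markers listed, 8 were tested, all from the sperm part of the list. The epididymis genes Defb20, Adam7, Rnase10 and Spag11b had a row but were not tested. The 8 had a median of -0.10, with 6 below 0, and none rose. The 1 that fell was Acr, the acrosomal protease gene, at -1.67 (SE 0.62, adjusted p = 0.0356) in the authors' deposited table. The protamine gene Prm1 had a mean count of 3.67.

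The cultures carried neuronal RNA in both genotypes. Summed over 8 neuron markers, the genotype mean was 277582 in wild type and 273924 in the knockout. Single neuron markers moved in both directions. Of the 8, all tested, 3 rose (Tubb3, Rbfox3 and Slc17a7) and 1 fell (Gad1, from 40149 to 19833). Of all tested genes 11% rose and 10.9% fell. Beside the falls of the 7 genes, sums over markers of some other cells were also lower in the knockout. The 10 microglia and macrophage markers summed to 1066 in wild type and 240 in the knockout, of which Cd68 made up 835 and 171. Of the 9 tested, 5 fell, where 10.9% of all tested genes did. The 6 choroid plexus and ependyma markers summed to 2409 and 171, and none of the 4 tested passed. Ttr, which has neither a p nor an adjusted p, made up 2177 of the wild-type sum and 0.865 of the knockout sum. The 7 endothelial markers summed to 99.97 and 63.7 with 1 fall among 5 tested, and the 7 markers of pericytes and smooth muscle to 2405 and 1462 with 3 falls among 6. Astrocyte markers went the other way, from 1346 to 2333, with no call among 7. The 8 meningeal fibroblast markers summed to 1609 and 1743, with 2 falls (Postn and Mgp) and 1 rise (Dcn, from 437 to 1261). Despite the higher sum, the median of these 8 on the log2 scale was -0.64. Blood cell and progenitor markers summed to 9773 and 3700, nearly all of it from Kit. Of the 5 blood markers tested, Kit fell and Cd34 rose. Oligodendrocyte lineage markers summed to 1414 and 1669, with 1 rise (Mog) among 5 tested. No marker with a row had a mean of 0, and 1 blood marker had no row. The part of these cells in the falls of the 7 genes was not tested, and in bulk RNA fewer cells of a type and less RNA per cell cannot be told apart.

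Tested genes next to the 7 did not share the size of their falls. Within 200 kb of the members lay 30 other tested genes, of which 1 rose and 5 fell, beside 11% and 10.9% of all tested genes, and their median on the log2 scale was -0.22. The lowest of those that fell was Srpx2, 42.9 kb to the right of Tnmd, at -2.31 (SE 0.90, adjusted p = 0.0489, mean count 13.6) in the authors' deposited table. Ppp1r1c lay between Itprid2 and Pde1a, which moved in opposite directions, -0.91 (SE 0.14) on the left and 0.93 (SE 0.27) on the right in the authors' deposited table. Around Hpse 3 of 11 neighbours fell, Lin54 to -0.36, Cops4 to -0.27 and Gpat3 to -0.98 in the authors' deposited table, and the nearest tested ones, Gm15777 and Helq, did not pass. None of the 6 tested neighbours of Spink2, the 4 of Emp1 or the 2 of Lce1g passed. Crisp1 had no tested neighbour in that window.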

How the data were processed

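RNA was measured by sequencing of polyadenylated RNA in 4 wild-type and 4 knockout samples, grouped by the genotype in the labels. The submitters' processing notes name mm10, DESeq2 and DESeq, with no versions. Aligner, counter, annotation and strand setting: not given in the sources used here. The deposited table gives per gene a signal, the mean normalized count over all libraries (per the file headers), a log2 fold change and its SE on the log2 scale, a score (the Wald statistic) and p-values, raw and adjusted. No values per library were used. Of 26229 rows 18085 had an adjusted p and count as tested. Empty adjusted p-values stayed empty.

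The members and lists were chosen with earlier results of these data known. The sign of each log2 value was turned after H2bc21. Genotype means were solved from the mean count and the fold change with equal weight per library, and dispersions from the SE. Both formulas were checked on simulated data, in fits that were given the true dispersion. That check covers the algebra only. How the deposited fit estimated its dispersions was not part of it. For Rpl15-ps2, another row past both limits, the formula gave -0.32, which a dispersion cannot be, at a knockout level of 0.189. The lowest knockout level among the members was 5.02. Intervals are 95% normal intervals of the fold change. Positions and lengths are from GENCODE M21 on GRCm38, which mm10 names, matched by Ensembl identifier for 26032 rows. Promoters are those of RefSeq on GRCm38.p6. Protein sequences were not used here. Genes were named by a rule: the targeted gene, the 7 members, the other rows past the same limits, the 3 rows on each side of the fold limit, in each list up to 4 called genes or else the most abundant ones and close relatives, and neighbours. In addition Ppp1r1a, Emp3, Cnmd, Crisp3, Crisp4, Hpse2, Scx, Mkx and Prm1 were named as relatives or markers after their values were seen. The same holds for the named neuron and epididymis markers and for the named markers of other cell types. Gusb, Naglu, Ctsl, Ndst4, Hs3st1, Hs3st2, Gpc3, Gpc2, Sdc1, Agrn, Ids, Idua, Sgsh, Hgsnat and Arsk were named by role, also after their values were seen. A gene that the rule names is not reported here. Alternatives were stricter thresholds, other nulls, other count limits and lengths. Python 3.11.15, numpy 2.4.6, pandas 2.3.3, scipy 1.17.1, statsmodels 0.14.6 and matplotlib 3.10.9 were used.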

Additional observations from a re-analysis of the deposited data

How the results depend on the processing

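The table holds 1 fit of 4 against 4 libraries, so leaving out a replicate was not run. No paired analysis was possible because the table carries no values per library. Genes lower in the knockout numbered 1967 as deposited, 1192 at an adjusted p under 0.01, 25 with the Wald statistics divided by their robust scale of 1.95, and 1 when read against Student's distribution at 6 degrees of freedom. Genes higher numbered 1981, and 59 and 0 under the last 2 settings, where 894 and 2098 had an unadjusted p under 0.05. All 7 members passed as deposited and when adjusted over all genes with a p, 6 passed at 0.01, and 0 passed with either other null, where 5 (scaled) and 7 (Student's) had an unadjusted p under 0.05. Rows past both selection limits numbered 18, and 11 with a mean count above 100. With the fold read at the interval's bound nearest to 0 there were 7, none of them a member. The wild-type levels moved by less than the spread between replicates in all 14 recomputations with the fold change at a bound of its interval. With falls this large, the formula makes that level depend little on the fold change, so nothing is read from this. Knockout levels, which depend on it more, were not recomputed. Of 62 recomputed counts of list members and neighbours 24 moved by over 1.5 times, 14 of them with Student's distribution. Within 500 kb of the members 9 of 61 tested neighbours fell. Depth per library is unknown, and knockout levels of a few counts limit the precision of each fold.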

Other observations

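The table leaves both p and adjusted p empty for 9 rows, and all 9 were lower in the knockout. Without values per library it cannot be read which libraries carry these rows, and their falls are given without a test. Besides Ttr they include Kcnj13, Cldn2 and Calml4, a channel, a tight junction and a calmodulin-like gene known from choroid plexus epithelium, named here after their values were seen. Printed with the sign turned to knockout over wild type, their log2 fold changes from the authors' deposited table were -6.57 (SE 3.83) for Kcnj13, -3.47 (SE 1.74) for Cldn2 and -4.72 (SE 2.12) for Calml4, at mean normalized counts of 2.96, 5.55 and 6.84.

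With the mean count limit lowered from 50 to 20, a further 5 rows were more than 10-fold lower in the authors' deposited table. With the sign turned likewise, they were Gm42970 (-4.88), Impg1 (-4.41, adjusted p = 0.0539), Art3 (-3.69), Agt, the angiotensinogen gene (-3.68), and Il1a, the gene of the cytokine interleukin-1 alpha (-3.50).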
